A study of Mus musculus with 9 samples.

Results

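Collagen genes, the members described here, were taken from the mouse retina as every row of the gene count table whose symbol is Col, a number, the letter a and a number, with at least 10 counts summed over 9 libraries. The rule found 44 genes among 26683. All 44 passed the filter on low counts that preceded testing, against 65.1% of the whole table. The basement membrane class has 8 members (Col4a1 to Col4a6, Col15a1 and Col18a1). The fibrillar class has 9 members (Col1a1, Col1a2, Col2a1, Col3a1, Col5a1, Col5a2, Col5a3, Col11a1 and Col11a2).

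Collagens are secreted proteins in which 3 alpha chains wind into a triple helix. Basement membrane collagen IV forms the sheet-like networks under endothelium and at the inner surface of the retina, whereas fibrillar collagens assemble into the ropes of connective tissue and, as collagens II, V and XI, into the fine fibrils of the vitreous. In the retina, vessels with their endothelium and pericytes are a main site of collagen IV, and new vessels lay down a basement membrane as they mature.

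RNA was sequenced in bulk from whole retinas collected on postnatal day 17. The Normoxic group had no oxygen-induced retinopathy. In oxygen-induced retinopathy (OIR), pups breathe high oxygen, which halts retinal vessel growth, and once back in room air they grow misdirected new vessels. The PBS group consisted of OIR mice given phosphate-buffered saline into the vitreous on postnatal day 15. The Gel group consisted of OIR mice given the PCC1/PHCF hydrogel into the vitreous on that day. PCC1 is procyanidin C1, a plant polyphenol that the series title describes as removing senescent cells. Each group has 3 libraries. PBS and Gel share the OIR procedure and the injection, and the labels do not say whether Normoxic eyes were injected. The comparison of PBS with Normoxic therefore cannot tell apart OIR and the injection, and the groups include no hydrogel without PCC1. The labels give neither strain nor sex, and do not state that the libraries of a group come from separate animals. The p-values thus measure the spread between these samples, which may be technical. In bulk retina, a lower level from fewer cells of a type cannot be told apart from one caused by less RNA per cell.

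Libraries held 29324142 to 35663470 counts, and collagen genes took 0.132% to 0.168% of those of Normoxic retinas, 0.150% to 0.199% with PBS and 0.154% to 0.180% with Gel. Rod photoreceptor markers, at a summed 53734 to 75311 counts per 1000000 of the library total (CPM) in every library, fit the retina label. Replicates of PBS and of Gel differed in a way that tracked gene length. Across genes, the Spearman correlation of transcript length with a library's deviation from the rest of its group was -0.49 in PBS 3, against 0.32 in PBS 1 and 0.41 in PBS 2. It was 0.32, -0.29 and -0.20 in Gel 1, 2 and 3, and between -0.05 and 0.03 in Normoxic. PBS 3 was the lowest library of its group for 30 of the 44 collagen genes. The part of this length relation in the results below was not tested, except where a value with the length trend removed is given. Gel 2 alone held corneal keratin RNA (Krt12 at 19.5 CPM and Krt5 at 21.3 CPM, against at most 0.76 and 0.102 CPM in the other 8 libraries).

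The first pair of sequences belongs to the genes with the largest basement membrane differences, Col4a1 and Col4a2, which start back to back on opposite strands. The second pair belongs to Col4a5 and Col4a6, another back-to-back couple that did not pass the test. Each run is the RefSeq window on mouse build GRCm38.p6 from 250 bases before to 50 bases after the annotated start, written 5′ to 3′ along the gene. Capitals mark CCAAT or its reverse complement ATTGG, and GGGCGG or its reverse complement CCGCCC.
Col4a1, chr8:11312777-11313076, minus strand: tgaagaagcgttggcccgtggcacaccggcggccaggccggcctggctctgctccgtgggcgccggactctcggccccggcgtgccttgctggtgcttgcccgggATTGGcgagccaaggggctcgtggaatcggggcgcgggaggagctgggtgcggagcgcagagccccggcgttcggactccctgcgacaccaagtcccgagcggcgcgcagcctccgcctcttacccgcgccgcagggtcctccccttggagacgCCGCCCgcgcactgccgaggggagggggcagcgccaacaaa
Col4a2, chr8:11312555-11312854, plus strand: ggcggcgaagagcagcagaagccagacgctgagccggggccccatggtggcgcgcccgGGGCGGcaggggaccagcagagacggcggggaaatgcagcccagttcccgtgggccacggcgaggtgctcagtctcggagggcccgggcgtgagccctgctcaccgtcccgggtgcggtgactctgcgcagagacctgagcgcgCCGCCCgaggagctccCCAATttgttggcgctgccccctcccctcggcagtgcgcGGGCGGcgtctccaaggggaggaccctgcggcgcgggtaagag
Col4a5, chrX:141475169-141475468, plus strand: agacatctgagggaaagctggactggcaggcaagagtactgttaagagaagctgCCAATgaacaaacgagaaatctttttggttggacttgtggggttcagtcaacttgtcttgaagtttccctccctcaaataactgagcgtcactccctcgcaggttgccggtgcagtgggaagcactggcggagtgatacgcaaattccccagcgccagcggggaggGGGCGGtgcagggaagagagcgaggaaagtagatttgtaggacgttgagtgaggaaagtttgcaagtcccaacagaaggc
Col4a6, chrX:141474027-141474326, minus strand: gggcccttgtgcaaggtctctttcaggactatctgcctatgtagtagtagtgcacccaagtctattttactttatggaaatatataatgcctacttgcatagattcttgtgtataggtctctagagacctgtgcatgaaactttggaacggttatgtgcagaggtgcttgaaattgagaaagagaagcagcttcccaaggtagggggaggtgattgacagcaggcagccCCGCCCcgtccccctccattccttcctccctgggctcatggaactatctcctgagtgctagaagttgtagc

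The annotated starts of Col4a1 and Col4a2 lie so close that their first 22 bases are shared, on opposite strands, and their windows overlap by 78 bases. Reads from those shared bases cannot be assigned to one gene without strand, which the sources used here do not give. The starts of Col4a5 and Col4a6 are separated by 1342 bases, and their windows do not overlap. The Col4a1 and Col4a2 windows are 74.0% and 73.7% G and C, against a median of 52.7% over all RefSeq windows and 52.7% and 48.3% for Col4a5 and Col4a6. CCAAT was found, on either strand, in 34.2% of the 38 windows of 35 collagen genes and in 37.4% of all 32851 windows. GGGCGG was found in 60.5% of the collagen windows and 35.7% of all windows. ACGTG, 1 form of the core letters of a hypoxia response element, was found on either strand in 13.2% and 19.6%, and in none of the 4 windows printed. The form GCGTG was not counted over the windows, and the printed Col4a1 and Col4a2 windows hold it. These matches describe letters in a window and not binding sites. No window in the table matched the other 9 members (Col12a1, Col14a1, Col1a1, Col22a1, Col26a1, Col2a1, Col4a3, Col5a2 and Col9a3).

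In PBS retinas, 7 collagen genes were higher than in Normoxic retinas and 1 was lower at an edgeR quasi-likelihood adjusted p under 0.05. The 7 were the collagen IV genes Col4a1 and Col4a2, the fibrillar genes Col1a1, Col3a1, Col5a2 and Col5a3, and Col6a3 of the beaded filaments. Col27a1 was lower. The higher calls were 15.9% of the 44 members, against 4.31% of all genes tested, and the lower call was 2.27%, against 2.03%. The median log2 difference was -0.05 over the 44 members and 0.01 over all genes tested. Values below are CPM, given for libraries 1, 2 and 3 of each group.

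**Figure D1:**
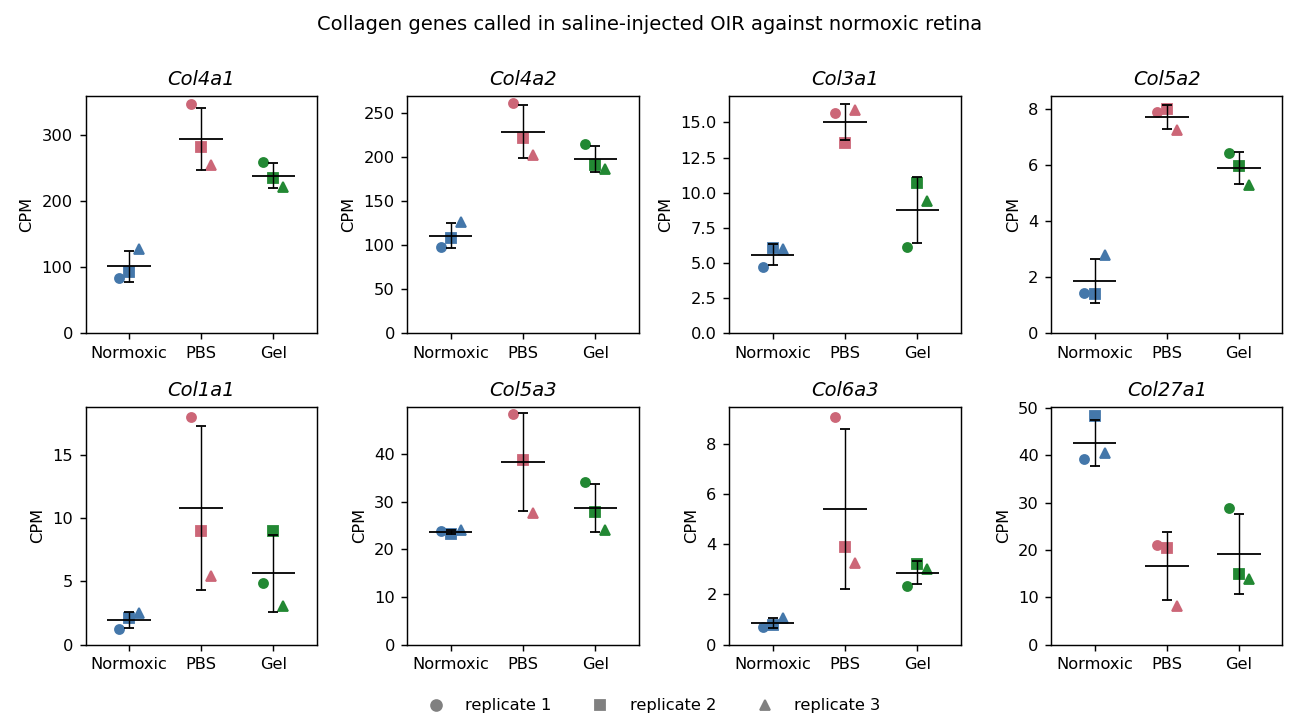
CPM in each library for the 8 collagen genes called in PBS against Normoxic, on a separate linear axis per gene; points are libraries and bars are the mean ± SD of 3 libraries. For each of the 8 genes, no PBS library lies within the Normoxic range, and Col27a1 is the one gene whose PBS libraries lie below it.

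Col4a1 and Col4a2 encode the alpha 1 and alpha 2 chains that make up the collagen IV found in nearly all basement membranes. Col4a1 stood at 83.3, 93.0 and 128 CPM in Normoxic, 347, 283 and 255 CPM in PBS and 260, 235 and 222 CPM in Gel. Every OIR library, with PBS or Gel, lay above every Normoxic library. PBS exceeded Normoxic 2.92-fold (log2 fold change 1.54 ± 0.17 SE, edgeR adjusted p = 0.000773). Col4a2 stood at 98.2, 108 and 126 CPM in Normoxic, 262, 222 and 203 CPM in PBS and 215, 191 and 187 CPM in Gel. Its groups were ordered in the same way, with a smaller difference of 2.07-fold between PBS and Normoxic (log2 fold change 1.05 ± 0.13 SE, edgeR adjusted p = 0.00143).

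The other 4 collagen IV chains form the networks of specialised basement membranes, such as those of the glomerulus and the lens capsule. None of them passed the test. Col4a3 stood at 8.15, 6.18 and 3.92 CPM in Normoxic, 4.52, 4.16 and 5.26 CPM in PBS and 6.16, 5.55 and 6.79 CPM in Gel. Col4a4 ranged from 6.56 to 10.4 CPM and Col4a5 from 12.5 to 24.2 CPM over the 9 libraries, and the PBS and Normoxic ranges of both overlapped. Col4a6 stood at 6.65, 5.29 and 3.49 CPM in Normoxic, 8.89, 9.44 and 8.10 CPM in PBS and 3.00, 4.29 and 6.79 CPM in Gel. Its PBS libraries were above all 6 others, but the difference from Normoxic missed the threshold (log2 0.79 ± 0.29 SE, edgeR adjusted p = 0.145).

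Collagens XV and XVIII are heparan- or chondroitin-sulphate-bearing collagens of basement membrane zones. The C-terminal part of the collagen XVIII chain is the source of endostatin, an inhibitor of vessel growth. Col18a1 stood at 84.2, 122 and 52.6 CPM in Normoxic, 103, 120 and 96.7 CPM in PBS and 66.9, 85.3 and 107 CPM in Gel. The groups overlapped throughout (PBS against Normoxic, log2 0.31 ± 0.26 SE, edgeR adjusted p = 0.505). Col15a1 stood at 3.41, 4.83 and 5.26 CPM in Normoxic, 5.45, 7.46 and 6.67 CPM in PBS and 7.04, 6.79 and 6.35 CPM in Gel. Its PBS and Gel libraries were above every Normoxic library, without passing the test (log2 0.54 ± 0.20 SE, edgeR adjusted p = 0.15, for PBS, and log2 0.59 ± 0.20 SE, edgeR adjusted p = 0.212, for Gel).

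Among the fibrillar genes, Col1a1 and Col1a2 encode the chains of collagen I, the main collagen of skin, bone and scar. Col1a1 stood at 1.19, 2.12 and 2.45 CPM in Normoxic, 17.9, 8.93 and 5.37 CPM in PBS and 4.85, 8.97 and 3.06 CPM in Gel. The PBS libraries were all above Normoxic and far apart from each other. The difference was 5.56-fold (log2 2.48 ± 0.50 SE, edgeR adjusted p = 0.0153), and it no longer passed when any 1 of the Normoxic libraries was left out (adjusted p up to 0.0770). Col1a2, its partner chain, stood at 9.86, 14.9 and 8.59 CPM in Normoxic, 14.9, 17.4 and 18.3 CPM in PBS and 9.90, 21.6 and 13.2 CPM in Gel, and did not pass (log2 0.62 ± 0.28 SE, edgeR adjusted p = 0.236). Its highest value was in Gel 2, the library with corneal keratins, and the part of corneal tissue in that value was not tested.

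Collagen III, encoded by Col3a1 alone, accompanies collagen I in vessel walls and other soft tissue. Col3a1 stood at 4.74, 6.06 and 6.01 CPM in Normoxic, 15.7, 13.6 and 15.9 CPM in PBS and 6.16, 10.7 and 9.43 CPM in Gel. The PBS libraries were close to each other and above all 6 others. PBS exceeded Normoxic 2.70-fold (log2 1.44 ± 0.21 SE, edgeR adjusted p = 0.00351).

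Collagen V is a minor fibrillar collagen that starts and limits the width of collagen I fibrils, and its 3 genes differed in response. Col5a2 stood at 1.43, 1.415 and 2.78 CPM in Normoxic, 7.87, 8.01 and 7.23 CPM in PBS and 6.43, 5.94 and 5.28 CPM in Gel, which separates all 3 groups. PBS exceeded Normoxic 4.12-fold (log2 2.04 ± 0.26 SE, edgeR adjusted p = 0.00143). Col5a3 stood at 23.7, 23.2 and 24.0 CPM in Normoxic, 48.4, 38.8 and 27.7 CPM in PBS and 34.0, 27.9 and 23.9 CPM in Gel. Its call rested on a difference of 1.62-fold just past the threshold (log2 0.70 ± 0.18 SE, edgeR adjusted p = 0.0469). It was lost without any 1 of 7 libraries (Normoxic 1, 2 or 3, PBS 1 or 2, Gel 2 or 3), with an adjusted p up to 0.166. Col5a1 stood at 16.1, 20.3 and 16.6 CPM in Normoxic, 20.6, 19.8 and 12.01 CPM in PBS and 14.9, 12.3 and 11.9 CPM in Gel, with PBS and Normoxic overlapping.

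Collagens II and XI are known from cartilage and from the vitreous. Col2a1 stood at 150, 173 and 125 CPM in Normoxic, 279, 215 and 138 CPM in PBS and 183, 149 and 151 CPM in Gel, the highest CPM of any fibrillar gene. PBS 1 and PBS 2 were above Normoxic and PBS 3 was within it (log2 0.50 ± 0.21 SE, edgeR adjusted p = 0.202). Without PBS 3 the difference was 0.71 on the log2 scale and passed (edgeR adjusted p = 0.0163), whereas with the length trend removed it was 0.54 and did not (edgeR adjusted p = 0.0963). Col11a1 stood at 22.7, 22.1 and 17.3 CPM in Normoxic, 12.1, 15.4 and 8.10 CPM in PBS and 18.4, 11.2 and 13.4 CPM in Gel. All PBS libraries were below Normoxic, at an edgeR adjusted p of 0.0641 (log2 -0.80 ± 0.23 SE). It passed with the length trend removed (log2 -0.70, edgeR adjusted p = 0.0300), without PBS 2 (0.0326) and without Gel 1 (0.0411). Col11a2 stood at 50.9, 54.1 and 44.7 CPM in Normoxic, 38.5, 37.4 and 17.2 CPM in PBS and 65.0, 28.9 and 25.2 CPM in Gel (PBS against Normoxic, log2 -0.69 ± 0.35 SE, edgeR adjusted p = 0.284).

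**Figure D2:**
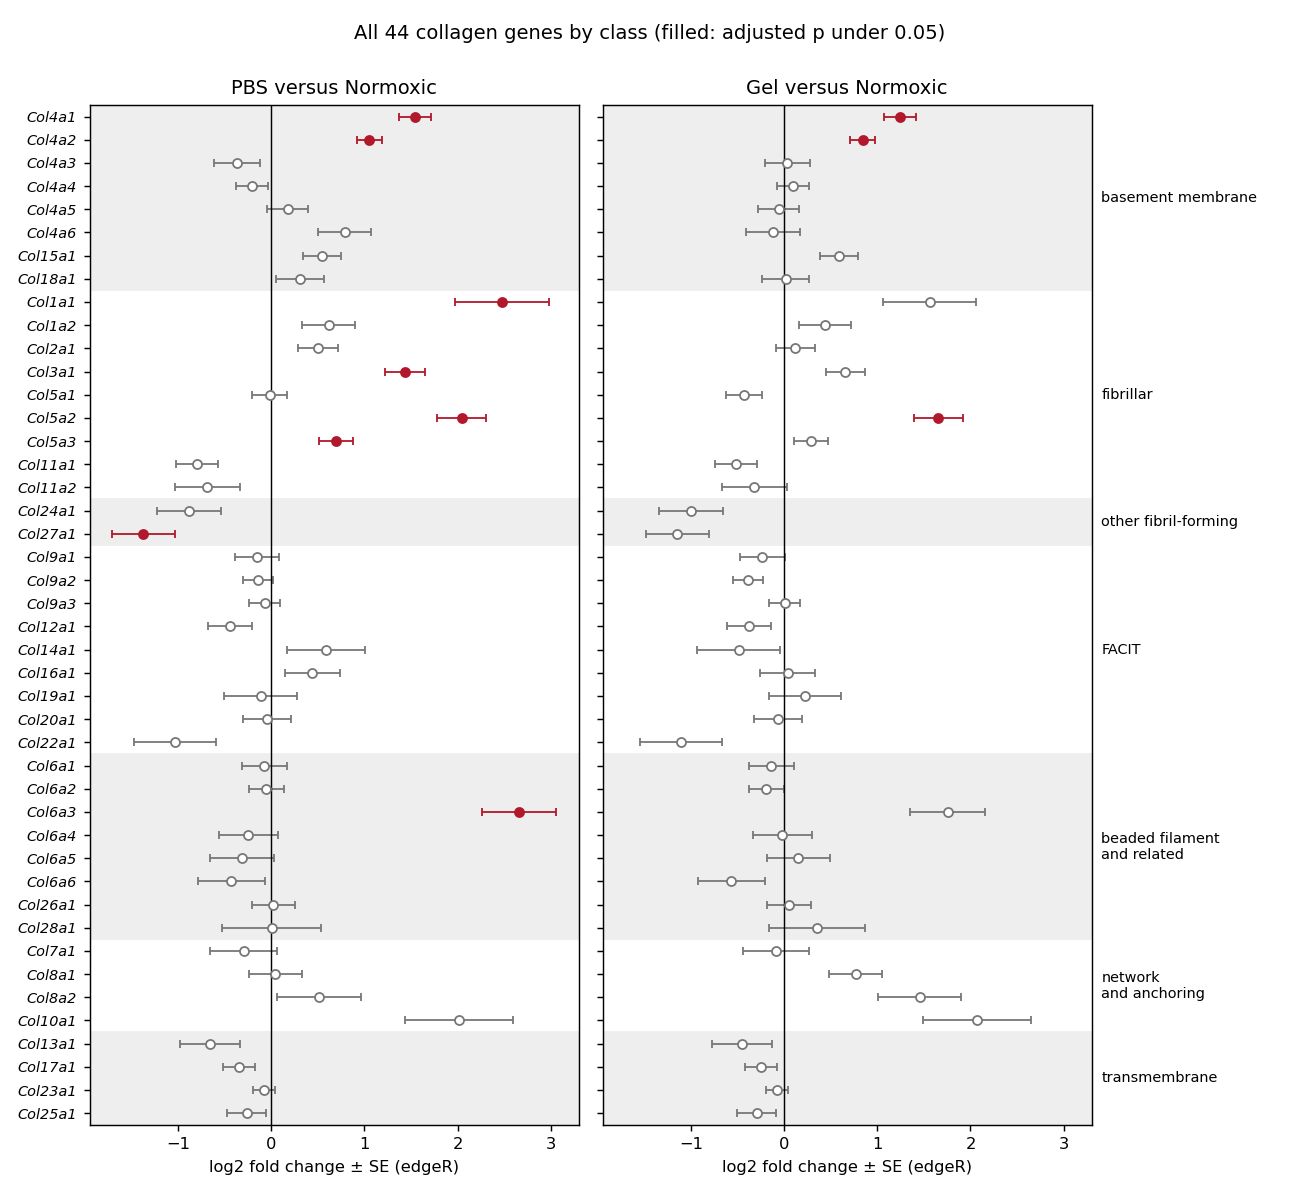
Log2 fold change ± SE of each of the 44 collagen genes, grouped by class, for PBS against Normoxic and Gel against Normoxic, which share their Normoxic libraries; filled points passed an edgeR adjusted p under 0.05. In the PBS comparison, filled points fall in the basement membrane, fibrillar, beaded filament and other fibril-forming classes, and none of the 9 FACIT members is filled.

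By class, 2 of 8 basement membrane genes (25%) and 4 of 9 fibrillar genes (44.4%) were higher in PBS than in Normoxic, against 4.31% of all genes tested. None of either class was lower, against 2.03% of all genes tested. The median log2 difference was 0.43 for the basement membrane genes and 0.62 for the fibrillar genes, against 0.01 for all genes tested. The 6 basement membrane genes that did not pass ranged from -0.37 to 0.79 in log2 difference, and the 5 such fibrillar genes from -0.80 to 0.62.

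Summed over its 8 genes, basement membrane collagen stood at 313, 372 and 341 CPM in Normoxic, 760, 679 and 597 CPM in PBS and 583, 555 and 566 CPM in Gel. The 3 groups did not overlap, and the mean of PBS was 1.98 times that of Normoxic (679 ± 81.6 against 342 ± 29.4 CPM, SD, n = 3). Col4a1 and Col4a2 together made up a mean 62.2% of this sum in Normoxic, 77.0% in PBS and 76.8% in Gel. Without that pair, the class summed to 130 ± 42.3 CPM in Normoxic, 155 ± 17.9 CPM in PBS and 131 ± 23.9 CPM in Gel (SD, n = 3), with overlapping ranges.

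Fibrillar collagen, summed over its 9 genes, stood at 280, 318 and 248 CPM in Normoxic, 455, 374 and 250 CPM in PBS and 343, 277 and 257 CPM in Gel. All pairs of groups overlapped, and the mean of PBS was 1.28 times that of Normoxic (360 ± 103 against 282 ± 35.0 CPM, SD, n = 3). Col2a1 supplied 52.8% of the fibrillar sum in Normoxic and 58.0% in PBS. The ratio of the basement membrane to the fibrillar sum was 1.12, 1.17 and 1.38 in Normoxic libraries, 1.67, 1.81 and 2.39 with PBS and 1.70, 2.01 and 2.20 with Gel. Every OIR library was above every Normoxic library in this ratio. PBS and Gel, with means of 1.96 ± 0.38 and 1.97 ± 0.25 (SD, n = 3), overlapped. No test was run on these sums, because the genes in them were chosen with results of these data known.

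**Figure D3:**
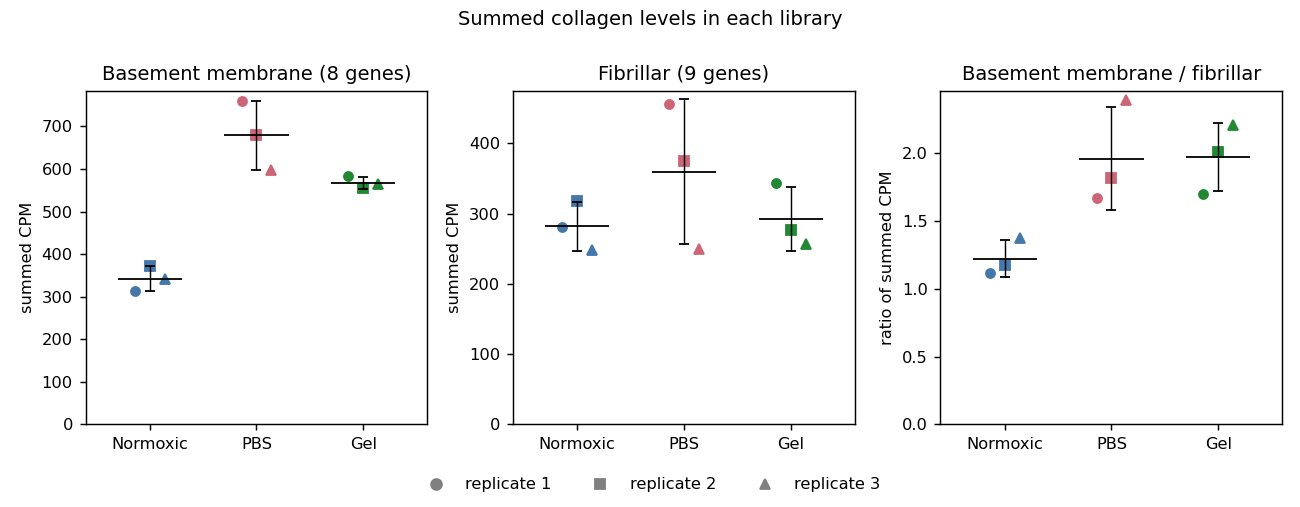
Summed CPM of the 8 basement membrane genes and of the 9 fibrillar genes, and the ratio of the first sum to the second, in each library; points are libraries and bars are the mean ± SD of 3. The basement membrane sums of the 3 groups do not overlap (313 to 372, 597 to 760 and 555 to 583 CPM), whereas the fibrillar sums do.

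Markers of other cell types in or near the retina were summed in the same libraries. Of all genes tested, 4.31% were called higher and 2.03% lower in PBS against Normoxic. Endothelial markers (12 genes) summed to 391 to 444 CPM in Normoxic, 425 to 490 CPM in PBS and 481 to 497 CPM in Gel. Of these genes, 6 were higher and 1 lower in PBS against Normoxic. By sign, 10 had positive and 2 negative log2 differences, with a median of 0.86. Kdr, the largest part of the Normoxic sum, had means of 199, 142 and 164 CPM in Normoxic, PBS and Gel. Pericyte and smooth muscle markers (11 of 12 tested) summed to 140 to 167 CPM in Normoxic, 318 to 452 CPM in PBS and 229 to 292 CPM in Gel, with 5 higher in PBS. Fibroblast markers other than collagens (8 of 11 tested) summed to 38.3 to 87.7 CPM in Normoxic, 127 to 132 CPM in PBS and 42.2 to 103 CPM in Gel, with 1 higher in PBS. The largest parts of the PBS sum were Fbln1 and Pdgfra. Fbln1 had means of 31.7, 73.9 and 27.1 CPM in Normoxic, PBS and Gel, and Pdgfra of 19.3, 34.9 and 29.6 CPM. Pdgfra is also in the astrocyte list below. All 8 tested fibroblast markers had positive log2 differences in PBS against Normoxic, with a median of 0.78. Dcn and Lum of the same list were near 0, at most 0.338 and 0.0841 CPM in any library. Microglial and macrophage markers summed to 40.1 to 44.7 CPM in Normoxic, 112 to 162 CPM in PBS and 84.2 to 111 CPM in Gel. Retinal astrocyte markers (6 genes) summed to 145 to 174 CPM in Normoxic, 351 to 510 CPM in PBS and 210 to 267 CPM in Gel. Of these, 3 were higher and 1 lower in PBS, with 4 positive and 2 negative log2 differences. Gfap, the largest part of the PBS sum, had means of 21.7, 265 and 106 CPM in Normoxic, PBS and Gel. Aqp4 had means of 80.8, 50.7 and 63.6 CPM. Muller glia markers (9 genes, Aqp4 among them) summed to 5289 to 5787 CPM in Normoxic, 4914 to 6479 CPM in PBS and 5006 to 6568 CPM in Gel. Of these, 1 was higher and 2 lower in PBS. Lens markers (3 of 8 tested) summed to 4.30 to 31.6 CPM in Normoxic, 1.21 to 3.66 CPM in PBS and 2.16 to 6.30 CPM in Gel, with 1 lower in PBS. Pigment epithelium and melanocyte markers (10 genes) summed to 44.1 to 138 CPM in Normoxic, 80.4 to 328 CPM in PBS and 172 to 263 CPM in Gel, with 0 called in PBS. Ciliary body and vitreous markers (5 genes) summed to 54.7 to 186 CPM in Normoxic, 130 to 163 CPM in PBS and 35.8 to 148 CPM in Gel, also with 0 called. The part of these cell types in the collagen results was not tested.

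Col6a3 and Col27a1 were the called genes outside these 2 classes. Col6a3 encodes the largest chain of collagen VI, which forms beaded filaments around cells. Col6a3 stood at 0.716, 0.769 and 1.08 CPM in Normoxic, 9.08, 3.88 and 3.26 CPM in PBS and 2.36, 3.22 and 3.03 CPM in Gel. It had the largest fold change of the 44 genes, 6.32-fold between PBS and Normoxic (log2 2.66 ± 0.40 SE, edgeR adjusted p = 0.00371), and PBS 1 was far above the other 2 PBS libraries. The partner chains Col6a1 and Col6a2 did not pass the test, and their groups overlapped. Col6a1 stood at 134, 148 and 115 CPM in Normoxic and 142, 156 and 78.3 CPM in PBS, and Col6a2 at 32.2, 34.1 and 28.1 CPM and 32.9, 35.2 and 22.7 CPM. Of the other uncalled genes in its class, Col6a4 had means of 12.7, 10.7 and 12.4 CPM in Normoxic, PBS and Gel, Col26a1 of 11.6, 11.7 and 11.96 CPM, Col6a6 of 2.21, 1.64 and 1.48 CPM and Col6a5 of 0.931, 0.751 and 1.03 CPM.

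Col27a1 encodes a fibril-forming collagen known from developing cartilage, classed apart from the major fibrillar genes with Col24a1. Col27a1 stood at 39.3, 48.3 and 40.6 CPM in Normoxic, 21.0, 20.4 and 8.22 CPM in PBS and 28.95, 14.8 and 13.8 CPM in Gel. Every OIR library was below every Normoxic library. PBS was 2.59-fold lower than Normoxic (log2 -1.37 ± 0.34 SE, edgeR adjusted p = 0.0363), and the value was -1.29 with the length trend removed (edgeR adjusted p = 0.0131). The call was lost without Normoxic 1, 2 or 3 or Gel 2 (adjusted p up to 0.134). Col24a1 stood at 3.68, 2.95 and 2.94 CPM in Normoxic, 1.91, 2.39 and 0.928 CPM in PBS and 2.19, 1.18 and 1.39 CPM in Gel. It too was below Normoxic in every OIR library without passing the test (edgeR adjusted p = 0.169 for PBS and 0.213 for Gel).

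The FACIT genes, whose products sit on the surface of fibrils or link them to other matrix, gave no call in PBS against Normoxic (0 of 9, median log2 -0.11). Over all genes tested, 4.31% were called higher and 2.03% lower. Col9a1 of collagen IX, which coats collagen II fibrils in the vitreous, stood at 240, 273 and 149 CPM in Normoxic, 151, 229 and 210 CPM in PBS and 148, 173 and 237 CPM in Gel. Its lowest library in each group (Normoxic 3, PBS 1 and Gel 1) was also the lowest for Optc, the gene of the vitreous proteoglycan opticin. Optc stood at 71.1, 103 and 23.1 CPM in Normoxic, 64.1, 83.0 and 102 CPM in PBS and 6.13, 37.6 and 82.6 CPM in Gel. Col18a1 of the basement membrane class and the fibroblast marker Fbln1 had the library order of Optc within Normoxic and within Gel, but not within PBS. The same held for the members Col9a1, Col4a5, Col9a3 and Col28a1. How many of all genes share that order was not counted. The part of adhering ciliary tissue in the values of these genes was not tested. The partner chains of Col9a1 had means in Normoxic, PBS and Gel of 40.7, 36.7 and 30.8 CPM for Col9a2 and 44.1, 41.7 and 43.96 CPM for Col9a3. In the same order, Col20a1 had means of 56.2, 54.4 and 53.4 CPM and Col12a1 of 19.5, 14.4 and 14.9 CPM. Col16a1 had means of 5.52, 7.50 and 5.64 CPM, Col19a1 of 3.01, 2.75 and 3.51 CPM, and Col22a1 of 2.13, 1.04 and 0.976 CPM.

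Transmembrane collagens span the plasma membrane of epithelial, neuronal and other cells. They also gave no call (0 of 4, median log2 -0.31), against 4.31% higher and 2.03% lower of all genes tested. Col23a1, the most abundant of them, stood at 159, 159 and 144 CPM in Normoxic, 139, 171 and 126 CPM in PBS and 153, 133 and 149 CPM in Gel. Col25a1, a neuronal member, had means of 19.4 ± 2.61, 16.1 ± 5.01 and 15.7 ± 2.80 CPM (SD, n = 3) in the same order. Col17a1, a component of hemidesmosomes, had means of 11.2, 8.80 and 9.37 CPM, and Col13a1 of 2.18, 1.39 and 1.59 CPM. Among the network-forming and anchoring genes (0 of 4 called, median log2 0.27), Col7a1 of the anchoring fibrils had means of 56.1 ± 6.60, 45.7 ± 19.9 and 52.5 ± 26.6 CPM (SD, n = 3). Col10a1, Col14a1 and Col28a1 had means under 1 CPM in every group. Every PBS library was above every Normoxic library for Col10a1, without passing (log2 2.01 ± 0.58 SE, edgeR adjusted p = 0.0689). DESeq2 called Col10a1 higher in PBS (adjusted p = 0.0250).

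Between Gel and PBS, 0 of 44 collagen genes passed in either direction with edgeR, against 0% higher and 0% lower of all genes tested. An unadjusted p under 0.05 was found for 6 of the 44, against 5.54% of all genes tested. DESeq2 called 0 of the 44, against 0.056% of all genes with an adjusted p higher and 0.269% lower, and limma-voom 0 of the 44, against 0% in both directions. The median log2 difference was -0.05 over the members and -0.01 over all genes tested. It was -0.22 for the basement membrane genes and -0.39 for the fibrillar genes, and 7 of the 9 fibrillar genes had negative values.

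Genes called between PBS and Normoxic had the following values in Gel against PBS, none of which passed the edgeR test. This comparison reuses the PBS libraries by which those genes were called. Such a choice by itself favours values opposite in sign to the call, and its part in the values was not tested. Col4a1 differed by -0.30 ± 0.17 (log2, SE; adjusted p = 0.987) and Col4a2 by -0.21 ± 0.13, with overlapping libraries. Col3a1 differed by -0.78 ± 0.21 (adjusted p = 0.576), the largest difference in relation to its SE among the 44, and every Gel library was below every PBS library. Col6a3 (-0.91 ± 0.36, adjusted p = 0.84) and Col5a2 (-0.39 ± 0.24, adjusted p = 0.987) also had Gel libraries below all PBS libraries. Col1a1 differed by -0.92 ± 0.46 (adjusted p = 0.962) and Col5a3 by -0.41 ± 0.18 (adjusted p = 0.889), both with overlap. Col27a1 differed by 0.23 ± 0.34, a value that turned negative without PBS 3 (-0.08) or without Gel 1 (-0.19).

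Outside the genes called in PBS, Col4a6 was below PBS in all Gel libraries (-0.90 ± 0.29 SE, edgeR adjusted p = 0.65). The collagen VIII genes Col8a1 and Col8a2, whose chains form hexagonal networks in vessel walls and under the corneal endothelium, were above the PBS mean. Col8a1 stood at 5.77, 8.14 and 8.22 CPM in PBS and 12.1, 14.6 and 9.85 CPM in Gel (0.72 ± 0.28 SE, edgeR adjusted p = 0.816). Col8a2 stood at 3.19, 3.24 and 5.85 CPM in PBS and 8.95, 9.70 and 5.19 CPM in Gel (0.95 ± 0.44 SE, edgeR adjusted p = 0.918). For both genes the highest library was Gel 2, which held corneal keratins. The pigment epithelium genes Lrat and Rpe65, chosen after their values were seen, had the same order of libraries within Gel as Col8a2. Lrat stood at 1.82, 1.67 and 3.63 CPM in PBS and 9.43, 10.8 and 5.78 CPM in Gel, and Rpe65 at 3.98, 4.53 and 9.65 CPM and 13.5, 14.4 and 11.3 CPM. Of the other listed markers, Ttr, Rgr, Tyr and Dct shared this order within Gel, whereas Best1, Tyrp1, Pmel and Mlana did not. Between Gel and PBS, 6 of the 10 pigment epithelium and melanocyte markers had positive and 4 negative log2 differences, from -2.74 to 1.85. None of the 10 passed the edgeR test. The part of corneal or pigmented tissue in the collagen VIII values was not tested.

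Gel retinas, compared with Normoxic, had 3 collagen genes higher and 0 lower. These were 6.82% of the members, against 1.12% of all genes tested that were higher and 0.288% that were lower, and 16 members had an unadjusted p under 0.05, against 13.2% of all genes tested. This comparison shares its Normoxic libraries with that of PBS, so the values are given side by side and not as independent support. Col4a1 was 2.37-fold higher (log2 1.24 ± 0.17 SE, edgeR adjusted p = 0.00744), against 2.92-fold in PBS. Col4a2 was 1.79-fold higher (log2 0.84 ± 0.13 SE, edgeR adjusted p = 0.0119), against 2.07-fold. Col5a2 was 3.15-fold higher (log2 1.66 ± 0.26 SE, edgeR adjusted p = 0.0116), against 4.12-fold.

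These 3 calls were lost in some of the fits that left out 1 library. Without Normoxic 2 all 3 were lost (edgeR adjusted p = 0.0587 for Col4a1, 0.0944 for Col4a2 and 0.0721 for Col5a2). Without Normoxic 1 (0.0806 and 0.0721) or without Gel 2 (0.0594 and 0.0517) those of Col4a2 and Col5a2 were lost. The log2 differences without Normoxic 2 were 1.18, 0.82 and 1.48 for Col4a1, Col4a2 and Col5a2. Over the whole table, higher calls fell from 195 to 44 without Normoxic 2, 47 without Normoxic 1 and 83 without Gel 2. The 5 other genes called in PBS had Gel against Normoxic values of 1.56 ± 0.50 for Col1a1 (log2, SE; edgeR adjusted p = 0.178), 0.66 ± 0.21 for Col3a1 (0.181), 0.28 ± 0.18 for Col5a3 (0.559), 1.75 ± 0.40 for Col6a3 (0.0658) and -1.15 ± 0.34 for Col27a1 (0.142). Col6a3 passed with no filter (edgeR adjusted p = 0.0133), with only the 2 groups (0.00947), with the length trend removed (0.0267) and without PBS 1 (0.0118) or PBS 3 (0.0167). Col27a1 passed with no filter (edgeR adjusted p = 0.0310), with only the 2 groups (0.0228) and without PBS 3 (0.0161) or Gel 1 (0.0474). Passing in PBS and missing in Gel does not show that the groups differ, since the direct comparison called none of them. By class, the median log2 difference was 0.06 for the basement membrane genes and 0.28 for the fibrillar genes, against 0.00 for all genes tested.

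Levels of different genes were compared with the authors' FPKM, which divides by transcript length. Col9a1 had the highest mean of the 44 in each group, at 52.0 ± 15.03 FPKM in Normoxic, 46.3 ± 9.62 in PBS and 43.9 ± 10.8 in Gel (SD, n = 3). Col4a1 moved from rank 6 in Normoxic (15.4 ± 3.58 FPKM) to rank 2 in PBS (44.6 ± 7.13 FPKM) and in Gel (36.1 ± 2.85 FPKM). Its PBS level lay within the spread of Col9a1 and of Col2a1, at 41.7 ± 14.0 FPKM, so the order of these 3 is not settled. Col1a1 was rank 35 in Normoxic (0.324 ± 0.110 FPKM), 22 in PBS (1.81 ± 1.09 FPKM) and 29 in Gel (0.949 ± 0.512 FPKM). Of the other called fibrillar genes, Col5a3 had a mean of 6.26 FPKM, Col3a1 of 2.70 FPKM and Col5a2 of 1.16 FPKM in PBS. Each was below Col4a1 and Col4a2, at 44.6 and 35.5 FPKM, and within or above the range of the other 4 collagen IV genes, at 0.518 to 3.22 FPKM.

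**Figure D4:**
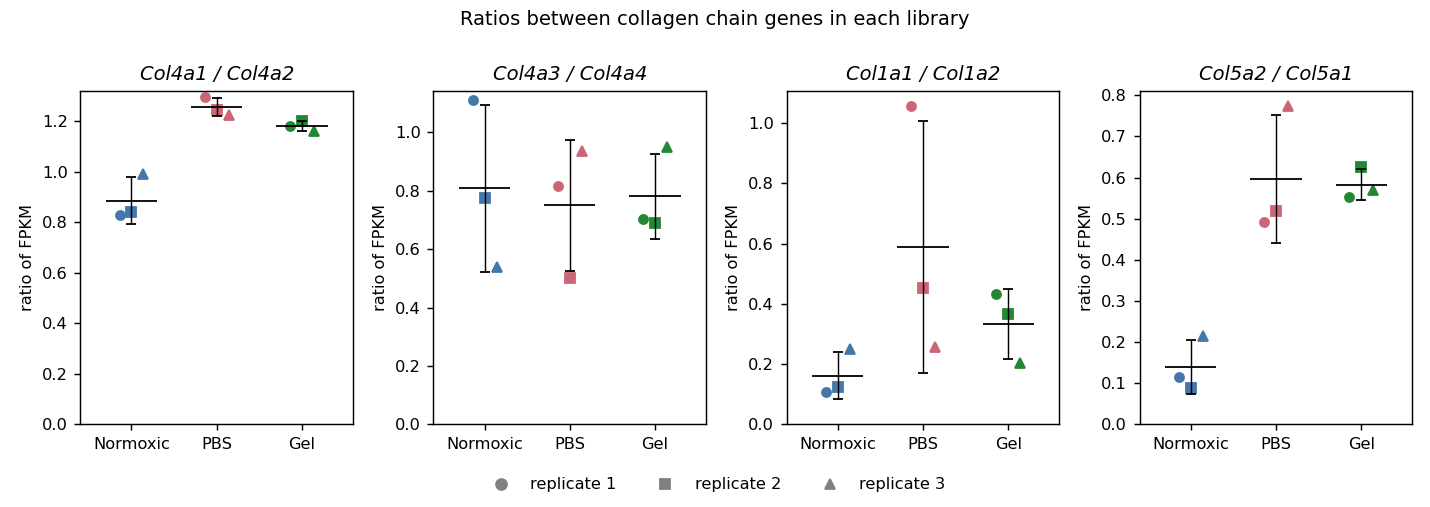
Ratio of the FPKM values of 4 pairs of collagen chains in each library (Col4a1 to Col4a2, Col4a3 to Col4a4, Col1a1 to Col1a2 and Col5a2 to Col5a1), each on its own linear axis, with the mean ± SD of 3 libraries. The ratio of Col4a1 to Col4a2 is under 1 in each Normoxic library and over 1.1 in each PBS and Gel library, while that of Col4a3 to Col4a4 overlaps between groups.

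The ratio between chains of one collagen separated the groups for some pairs and overlapped for others. Most collagen IV molecules hold 2 alpha 1 chains and 1 alpha 2 chain. The FPKM ratio of Col4a1 to Col4a2 was 0.827, 0.839 and 0.991 in Normoxic libraries, 1.29, 1.24 and 1.22 with PBS and 1.18, 1.20 and 1.16 with Gel. The 3 groups did not overlap, although Gel and PBS were separated by little. The ratio of Col4a3 to Col4a4 was 0.809 ± 0.286, 0.750 ± 0.225 and 0.781 ± 0.145 (SD, n = 3) in Normoxic, PBS and Gel. The ratio of Col1a1 to Col1a2 was 0.107, 0.126 and 0.251 in Normoxic libraries, 1.06, 0.452 and 0.258 with PBS and 0.431, 0.366 and 0.204 with Gel, with PBS 3 barely above the highest Normoxic library.

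The remaining ratios were chosen after the values were seen and are given as description. Col5a2 to Col5a1 was 0.114, 0.0896 and 0.215 in Normoxic libraries, 0.492, 0.520 and 0.775 with PBS and 0.554, 0.624 and 0.570 with Gel. Col6a3 to Col6a1 was between 0.00191 and 0.00344 in Normoxic and between 0.00541 and 0.0234 in the OIR libraries. Col6a2 to Col6a1 had means of 0.158, 0.165 and 0.153 in Normoxic, PBS and Gel, and Col9a2 to Col9a1 of 0.289, 0.297 and 0.261, both with overlap between every pair of groups. In collagens I and VI, the only gene called in PBS had the lowest Normoxic mean, 0.324 FPKM for Col1a1 and 0.0787 FPKM for Col6a3. In collagen V, the called gene with the larger fold change, Col5a2, had the lowest, 0.283 FPKM. A fold change is relative to the Normoxic level, so a low level by itself favours a large fold. In collagen IV, the called genes Col4a1 and Col4a2 had the highest Normoxic means, 15.4 and 17.2 FPKM.

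Among genes that make, trim, cross-link or bind collagen, 39 of 41 listed genes were tested. In PBS against Normoxic, 9 were higher and 0 lower, or 23.1% against 4.31% of all genes tested. Higher calls numbered 3 of the 17 modification and folding genes, 3 of the 13 tested cleavage and cross-linking genes, and 3 of the 9 tested receptor and uptake genes. Serpinh1, the collagen-specific chaperone of the endoplasmic reticulum, stood at 34.7, 41.3 and 38.8 CPM in Normoxic, 98.4, 87.0 and 119 CPM in PBS and 73.4, 88.5 and 72.9 CPM in Gel. It was 2.68-fold higher in PBS (log2 1.422 ± 0.15 SE, edgeR adjusted p = 0.000633). Plod1, a lysyl hydroxylase that prepares collagen for cross-linking, was 1.70-fold higher (log2 0.77 ± 0.10 SE, edgeR adjusted p = 0.00225).

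Pcolce, an enhancer of the protease that removes the C-terminal propeptide of fibrillar procollagens, had the largest change of these lists. Pcolce stood at 8.18, 7.38 and 5.55 CPM in Normoxic, 87.4, 45.1 and 39.0 CPM in PBS and 21.5, 20.7 and 24.5 CPM in Gel. The 3 groups were fully separated, and PBS exceeded Normoxic 8.17-fold (log2 3.03 ± 0.28 SE, edgeR adjusted p = 0.000297). Loxl2, a lysyl oxidase that cross-links collagen IV, was 2.26-fold higher (log2 1.18 ± 0.21 SE, edgeR adjusted p = 0.00831). Mrc2, an endocytic receptor for collagen, was 3.54-fold higher (log2 1.82 ± 0.27 SE, edgeR adjusted p = 0.0034), and Itgb1, the beta chain shared by the collagen-binding integrins, 1.64-fold (log2 0.71 ± 0.14 SE, edgeR adjusted p = 0.0115). The call of Itgb1 was lost without Normoxic 2 or 3 (adjusted p up to 0.0627). The other 3 called genes were P3h4, Pcolce2 and Itga1, and each lost its call without Normoxic 1 or Normoxic 2, P3h4 also without Normoxic 3, PBS 1, PBS 3 or Gel 2 and Pcolce2 also without PBS 1.

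Gel against PBS gave 0 calls among the 39 pathway genes. Of these, 10 had an unadjusted p under 0.05, against 5.54% of all genes tested, and 30 had negative values, against 52.7% of all genes. Pcolce differed by -1.36 ± 0.26 (log2, SE; edgeR adjusted p = 0.303), and by enough to pass without PBS 3 (adjusted p = 0.0426). Loxl2 (-0.79 ± 0.21) and Mrc2 (-0.98 ± 0.26) had all Gel libraries below all PBS libraries, each at an edgeR adjusted p of 0.576. Pcolce, Loxl2 and Mrc2 had been called higher with the same PBS libraries, a choice that by itself favours negative values here. Gel against Normoxic gave 3 higher calls, or 7.69% of the tested pathway genes, against 1.12% of all genes tested. They were Serpinh1 (log2 1.04 ± 0.15 SE, edgeR adjusted p = 0.00903), Plod1 (log2 0.50 ± 0.10 SE, edgeR adjusted p = 0.0444) and Pcolce (log2 1.67 ± 0.27 SE, edgeR adjusted p = 0.0147). Leaving out Normoxic 1 or Normoxic 2 lost all 3 calls. That of Pcolce was also lost without Normoxic 3 or Gel 3 (adjusted p up to 0.0813), and that of Plod1 without Normoxic 3 or any 1 Gel library (up to 0.143).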

How the data were processed

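Bulk RNA-seq of mouse retina was deposited as 1 table of whole-number counts and FPKM values per gene and library. The submitters' processing notes list build GRCm39 and the tools RSEM 1.3.1, Bowtie2 and DESeq2 1.4.5; their roles and the strand setting are not given in the sources used here. FPKM values, computed by the authors, served for levels between genes. The deposited counts of 9 libraries were tested with edgeR 4.0.16 (R 4.3.3): filterByExpr with a minimum count of 10, TMM factors, a quasi-likelihood F test on group (two-sided), and Benjamini-Hochberg adjustment over 17362 genes, with calls at 0.05. SE is the absolute log2 fold change over the square root of F. CPM is the count per 1000000 of the library total. DESeq2 1.42.0 and limma 3.58.1 were alternatives, and the scripts were tested on simulated data. Text names all called, basement membrane and fibrillar members, and other members averaging at least 1 CPM in any group. The remaining members are given by name only, except Col10a1. Up to 6 called pathway genes per comparison, those with the smallest p, are described. Members and lists were chosen with earlier results of these data known. No libraries were left out of the tests.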

Additional observations from a re-analysis of the deposited data

How the results depend on the processing

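Col4a1, Col4a2, Col3a1, Col5a2 and Col6a3 kept their PBS against Normoxic call under all 17 alternatives. Col5a3 lost it with DESeq2 size factors in edgeR (adjusted p = 0.0510), limma-voom (0.0649), limma on log2 FPKM (0.0962) and a fit of only the 2 groups (0.0656). Lower calls in PBS against Normoxic numbered 1, and 2 (Col11a1 with Col27a1) with no filter, with DESeq2, with the replicate block and with the length trend removed. In Gel against Normoxic, DESeq2 called 7 members higher in place of 3, adding Col1a1, Col6a3, Col8a2 and Col10a1, while it called 535 genes of the whole table higher in place of 195, and 1 lower (Col27a1) was called with no filter, DESeq2 or only 2 groups. Leaving out single libraries gave 5 to 8 higher and 0 to 2 lower calls in PBS against Normoxic, and 0 to 4 higher and 0 to 1 lower in Gel against Normoxic. Over the whole table, the same fits moved the higher calls from 748 to between 371 and 797 and from 195 to between 44 and 494. Among pathway genes such fits gave 5 to 11 higher and 0 to 1 lower (Tll1) in PBS against Normoxic, 0 to 1 lower (Pcolce) in Gel against PBS, and 0 to 5 higher and 0 to 1 lower (P4ha1) in Gel against Normoxic. The lowest counts of higher calls among collagen and pathway genes were reached without Normoxic 2, though not only without that library. Col1a1 and Col5a3 lost their PBS calls without any 1 of the Normoxic libraries. Over the whole table, higher calls in PBS against Normoxic numbered 371 without Normoxic 1, 372 without Normoxic 2 and 405 without Normoxic 3. Without Col4a1, its most abundant member by mean CPM, the basement membrane sum was 1.60 times Normoxic in PBS and 1.37 times in Gel. Col27a1 in Gel against PBS changed sign without PBS 3 (-0.08) or Gel 1 (-0.19), within a range of -0.19 to 0.44 over the fits that leave out single libraries. The replicate numbers did not pair the libraries: no library correlated best with its own number in both other groups. The fit with the replicate block gave 7 higher members in PBS against Normoxic and 3 in Gel against Normoxic, and with it Plod1 missed the threshold in Gel against Normoxic (adjusted p = 0.0662). Apart from the alternatives' own construction, the cause of these changes was not tested.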
